A study of Homo sapiens with 12 samples.

Results

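The HOX genes of the 4 clusters were chosen by symbol: every coding row named HOXA, HOXB, HOXC or HOXD with a number. There were 39 of them among 53717 genes: 11 HOXA, 10 HOXB, 9 HOXC and 9 HOXD genes, on human chromosomes 7, 17, 12 and 2. Their poly(A) RNA was measured in H9, a long-established line of human embryonic stem cells, grown in RSeT, a medium sold for naive-type culture. All cells were transfected with 25 nM of a fluorescein-labelled oligonucleotide, and the cells that fluoresced were sorted at 48 h. ASO-Ctr is an antisense oligo with no specific target, sO-L1 a sense oligo of the retrotransposon LINE1, and ASO-L1 an antisense oligo against LINE1, with 4 libraries each and 12 in all. All 3 groups also received 0.7 uM trans-ISRIB, which counters the translation block of the integrated stress response, 5 uM of the caspase inhibitor emricasan and 10 uM of the ROCK inhibitor Y-27632, removed after 24 h. Only cells that took up an oligo were sampled, from 1 line. Nothing in the labels says that replicates were separate cultures, so p-values measure the spread between these libraries. LINE1 RNA was not analysed here.

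HOX genes encode homeodomain transcription factors that give cells their position along the head-to-tail axis. Within a cluster they lie in the order in which they are used: genes at the 3′ end, with low numbers, are activated first and towards the head, and genes with high numbers later and towards the tail. In pluripotent cells Polycomb complexes hold the clusters largely silent, and retinoic acid, WNT and FGF signals open them. HOXB1, HOXB2 and HOXB3 sit at the early end of the HOXB cluster and pattern the hindbrain.

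The promoter of HOXB1 is shown because it carries a motif of the kind bound by HOX proteins together with their partner PBX, and HOXB1 and PBX proteins are known to act on this gene's own regulatory sequence. The 250 bases before the transcription start are from RefSeq, at chr17:48531012-48531261 on the minus strand of GRCh38.p14, and the capitals mark TGATGGATGG, a match to TGATNNAT with its next 2 bases. Among HOXB1, HOXB2 and HOXB3, HOXB1 was the member matched in the RefSeq promoter table.

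HOXB1 promoter: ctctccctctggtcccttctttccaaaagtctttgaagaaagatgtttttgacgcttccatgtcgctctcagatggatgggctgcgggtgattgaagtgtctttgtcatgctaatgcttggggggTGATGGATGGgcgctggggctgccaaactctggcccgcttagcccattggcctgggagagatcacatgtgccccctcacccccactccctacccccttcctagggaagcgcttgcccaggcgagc

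This motif was picked after the sequence had been read. It covers bases 125 to 116 before the start, and searched on both strands it occurs in 19 of 35116 promoter windows (0.0541%) and in 1 of the 20 HOX genes that have an entry. The form TGATNNAT occurs in 6.47% of all windows and in those of HOXA2, HOXB1 and HOXD11. ATTA, the core of many homeodomain sites, occurs in 47.4% of windows and 1 time in that of HOXB1. A match describes letters and does not show binding. The HOXB1 window holds 7 CG pairs, against a median of 11 in all windows and 19 in those of HOX genes.

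Most HOX genes gave no read or next to none. Of the 39 genes, 18 had 0 reads in all 12 libraries: HOXA2, HOXA4, HOXA6, HOXA7 and HOXA9; HOXB4, HOXB5, HOXB6, HOXB8 and HOXB13; HOXC5, HOXC10, HOXC11 and HOXC12; HOXD3, HOXD4, HOXD10 and HOXD11. A count of 0 allows up to 3 reads, or 0.0534 to 0.128 CPM (reads scaled to a common library size) in libraries of 55.1 to 22.8 M reads. Of the 21 genes with a read, only HOXB1, HOXB2 and HOXB3 passed the filter on low counts. They held 804 of the 882 HOX reads (91.2%), and by cluster the reads were 8 for HOXA, 827 for HOXB, 17 for HOXC and 30 for HOXD. The other 18 genes with a read each had no more than 21 reads in total, and their highest level in a library was 0.189 CPM. Shares of reads depend on gene length as well as on RNA molecules.

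**Figure D1:**
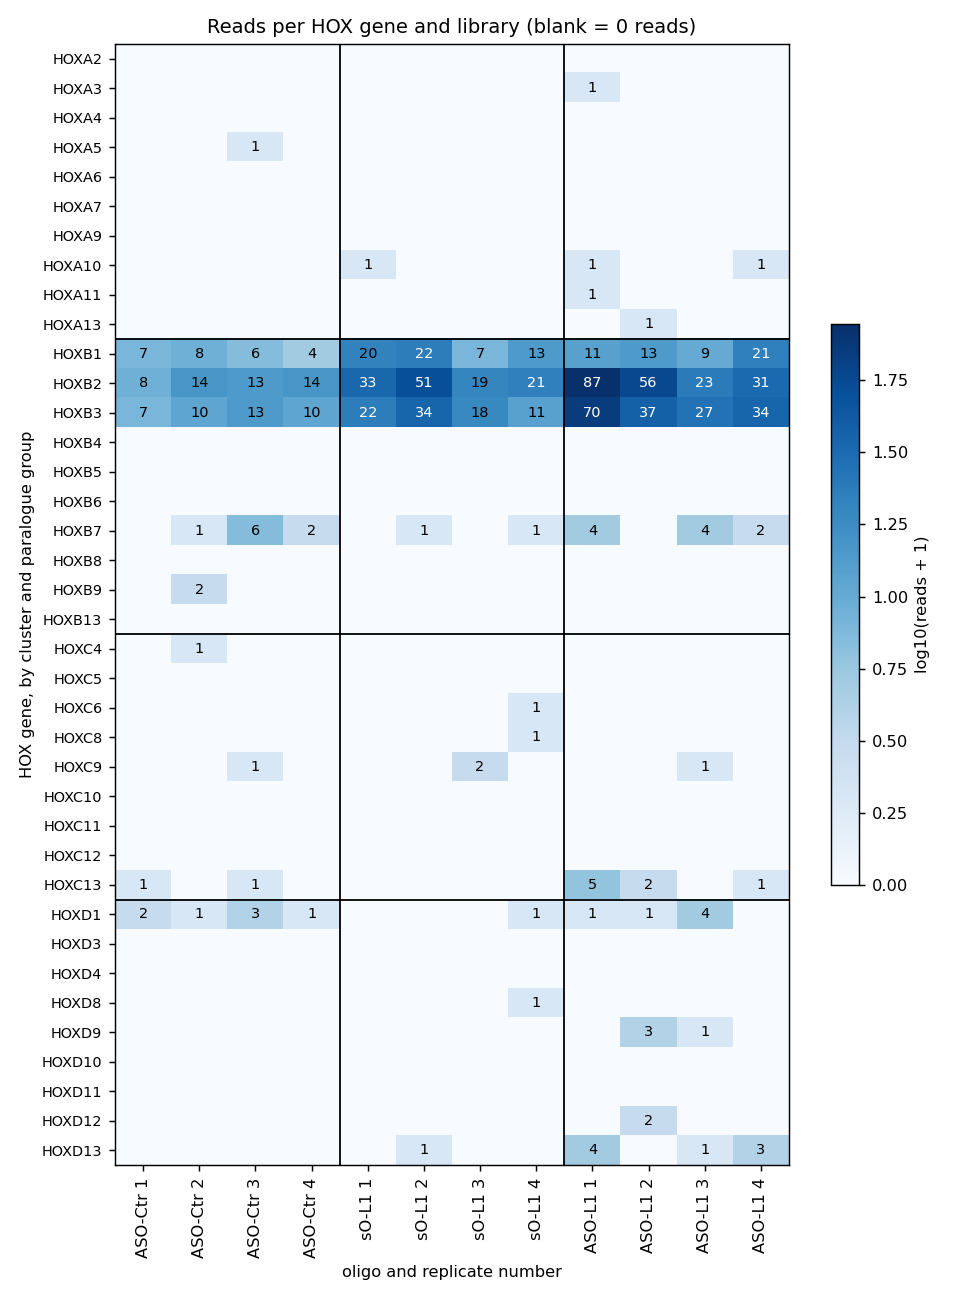
Reads of 38 of the 39 HOX genes (rows, by cluster) in each of the 12 libraries (columns, by oligo and replicate number), with colour on a log10(reads + 1) scale and blanks for 0 reads. HOXB1, HOXB2 and HOXB3 form the only rows with reads in every library, and 18 rows are blank throughout.

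HOXB1, HOXB2 and HOXB3 were detected with at least 3 reads in each of the 12 libraries. HOX genes with at least 3 reads numbered 3, 3, 5 and 3 in ASO-Ctr replicates 1 to 4, 3 in every sO-L1 library, and 6, 4, 5 and 4 in ASO-L1. The means were 3.5 ± 1.0, 3.0 and 4.75 ± 0.957 genes (SD, n = 4 each). Computed for the depth of the smallest library they were 3.17, 2.99 and 4.18. The further genes with at least 3 reads were HOXB7 in 3 libraries, HOXD1 and HOXD13 in 2 each, and HOXD9 and HOXC13 in 1 each.

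HOXB2, a hindbrain regulator of the second paralogue group, gave 8, 14, 13 and 14 reads in ASO-Ctr replicates 1 to 4, 33, 51, 19 and 21 in sO-L1, and 87, 56, 23 and 31 in ASO-L1. In CPM these were 0.342, 0.334, 0.409 and 0.405 in ASO-Ctr, 0.944, 0.907, 0.558 and 0.687 in sO-L1, and 3.13, 1.36, 0.79 and 0.898 in ASO-L1. The control libraries lay close together, both other groups lay above all of them, and ASO-L1 replicate 1 was far above the rest. HOXB3, of the third group, gave 7, 10, 13 and 10 reads in ASO-Ctr, 22, 34, 18 and 11 in sO-L1, and 70, 37, 27 and 34 in ASO-L1. Its levels were 0.299, 0.239, 0.409 and 0.29 CPM in ASO-Ctr, 0.63, 0.605, 0.529 and 0.36 CPM in sO-L1, and 2.52, 0.897, 0.927 and 0.984 CPM in ASO-L1. All ASO-L1 libraries exceeded all others, while the sO-L1 and ASO-Ctr ranges overlapped. HOXB1, of the first group and the earliest HOXB gene to be switched on, gave 7, 8, 6 and 4 reads in ASO-Ctr, 20, 22, 7 and 13 in sO-L1, and 11, 13, 9 and 21 in ASO-L1. Its levels were 0.299, 0.191, 0.189 and 0.116 CPM in ASO-Ctr, 0.572, 0.391, 0.206 and 0.425 CPM in sO-L1, and 0.396, 0.315, 0.309 and 0.608 CPM in ASO-L1. All ASO-L1 values lay above the highest ASO-Ctr value, 0.315 and 0.309 CPM only just, and 3 of 4 lay within the range of sO-L1.

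**Figure D2:**
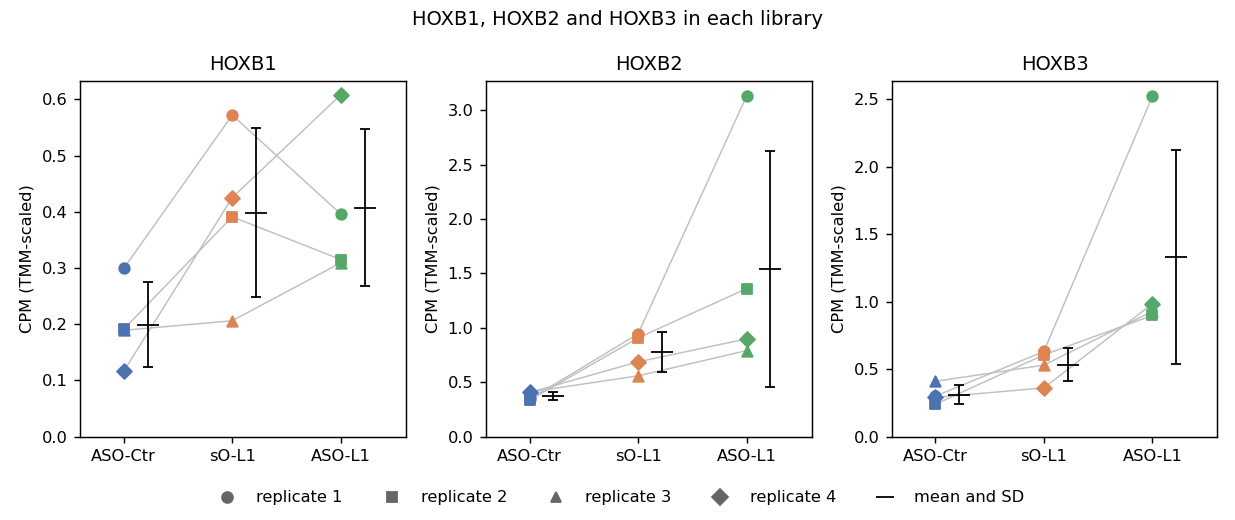
Level of HOXB1, HOXB2 and HOXB3 in CPM (y axes start at 0 and differ) in each library by oligo; lines join libraries of the same replicate number and black bars give the mean and SD of 4 libraries. For HOXB2 and HOXB3 the ASO-L1 library of replicate 1, at 3.13 and 2.52 CPM, stands far above the other 3.

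With ASO-L1, HOXB1, HOXB2 and HOXB3 were all higher than with ASO-Ctr. HOXB3 rose 3.96-fold (95% interval 2.47 to 6.34), from 0.309 ± 0.0717 to 1.33 ± 0.793 CPM (log2 1.98, SE 0.32, adjusted p = 9.98e-05, edgeR quasi-likelihood test; SD, n = 4 per group). HOXB2 rose 3.68-fold (2.3 to 5.88), from 0.373 ± 0.0401 to 1.54 ± 1.09 CPM (log2 1.88, SE 0.32, adjusted p = 0.000161). HOXB1 rose 2.07-fold (1.15 to 3.7), from 0.199 ± 0.0757 to 0.407 ± 0.14 CPM (log2 1.05, SE 0.40, adjusted p = 0.0414). Within replicate numbers 1 to 4 the CPM ratios were 8.42, 3.76, 2.27 and 3.4 for HOXB3, 9.16, 4.06, 1.93 and 2.21 for HOXB2, and 1.32, 1.65, 1.64 and 5.25 for HOXB1. Every ratio was above 1, the highest falling in replicate 1 for HOXB2 and HOXB3 and in replicate 4 for HOXB1.

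Of all 17264 genes tested in this comparison, edgeR called 21.2% higher and 23.1% lower, with a median log2 difference of -0.00279. Among the 4774 with a mean under 2 CPM, a limit chosen after the HOX levels were seen, it called 10.7% higher. All 4 ASO-L1 libraries exceeded all 4 ASO-Ctr libraries in 16.3% of genes and in 8.40% of the low-level ones. The count of 3 calls among 3 tested HOX genes is not a count over the family, since 36 members had too few reads to enter. HOXB1 reached the filter level of 0.289 CPM in 1, 3 and 4 libraries of ASO-Ctr, sO-L1 and ASO-L1, HOXB3 in 2, 4 and 4, and HOXB2 in all. Entry of HOXB1 and HOXB3 therefore rested on the groups where they were higher, and that of HOXB2 did not.

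The HOXB2 and HOXB3 calls against ASO-Ctr held in all 16 fits with 1 replicate number or 1 library removed, at adjusted p from 6.97e-05 to 0.00367 and from 0.000126 to 0.00125 (edgeR). Without ASO-L1 replicate 1 their log2 differences were 1.49 and 1.65. The HOXB1 call was lost in 12 of the 16 (adjusted p = 0.0266 to 0.299) and held without ASO-Ctr replicate 3, sO-L1 replicate 3, ASO-L1 replicate 1 or all of replicate 1. It was also lost without the filter (adjusted p = 0.0613), with no block for the replicate number (adjusted p = 0.0517), with only the compared groups in the fit (adjusted p = 0.0628) and with DESeq2 (adjusted p = 0.0956).

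Against the sense oligo sO-L1, HOXB3 and HOXB2 were higher with ASO-L1 and HOXB1 was not called. HOXB3 stood at 1.33 ± 0.793 against 0.531 ± 0.122 CPM, a 2.31-fold rise (1.52 to 3.52; log2 1.21, SE 0.29, adjusted p = 0.00259, edgeR). HOXB2 stood at 1.54 ± 1.09 against 0.774 ± 0.183 CPM, a 1.83-fold rise (1.22 to 2.76; log2 0.87, SE 0.28, adjusted p = 0.0176), with overlapping groups but a higher ASO-L1 library in all 4 replicate numbers. HOXB1 stood at 0.407 ± 0.14 against 0.399 ± 0.151 CPM, 1.03-fold (0.621 to 1.7; adjusted p = 0.937), higher in 2 of 4 replicate numbers. Over all genes edgeR called 21.1% higher and 22.9% lower, and 10.9% of low-level genes higher. All 4 ASO-L1 libraries exceeded all 4 sO-L1 libraries in 16.0% of genes and in 8.04% of the low-level ones. HOXB2 lost its call without ASO-L1 replicate 1 (log2 0.45, adjusted p = 0.221), without all 3 libraries of replicate 1 (adjusted p = 0.191), without sO-L1 replicate 1 (adjusted p = 0.125) and with limma on the authors' log2 values (adjusted p = 0.064). The HOXB3 call was kept in all 16 leave-out fits (adjusted p = 0.00262 to 0.0294). The authors' deposited table of this comparison lists the same 3 HOX genes, with log2 fold changes of 0.03 for HOXB1 (adjusted p = 0.967), 0.84 for HOXB2 (adjusted p = 0.0263) and 1.16 for HOXB3 (adjusted p = 0.00509).

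Between the control oligos, edgeR called none of the 3 HOX genes, although all 3 had higher means with sO-L1 than with ASO-Ctr. HOXB1 was at 0.399 ± 0.151 against 0.199 ± 0.0757 CPM, 2.01-fold (1.13 to 3.56; adjusted p = 0.561). HOXB2 was at 0.774 ± 0.183 against 0.373 ± 0.0401 CPM, 2.01-fold (1.22 to 3.3; adjusted p = 0.405). HOXB3 was at 0.531 ± 0.122 against 0.309 ± 0.0717 CPM, 1.71-fold (1.02 to 2.86; adjusted p = 0.673). Each was higher in 4 of 4 replicate numbers. edgeR called 0.0695% of all genes higher and 0.220% lower, and 0 of the low-level genes higher. Of the 3 HOX genes 3 had an unadjusted p under 0.05 (edgeR), where 3.19% of all genes had one and were higher (24.8% in each ASO-L1 comparison). As stated above, entry of HOXB1 and HOXB3 rested on the groups where they were higher, so that share is not a fair measure for them. The 3 genes are also neighbours in 1 cluster and not separate trials. DESeq2, which gave HOXB1 no adjusted p, called 0 with 1 unadjusted, and limma 0 with 3. For HOXB2 all 4 sO-L1 libraries exceeded all 4 ASO-Ctr libraries, as in 1.24% of all genes and 1.36% of low-level genes. A fit of only these groups called HOXB2 (adjusted p = 0.0336). The comparisons share libraries in pairs, so their values are given side by side and are not independent of each other.

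**Figure D3:**
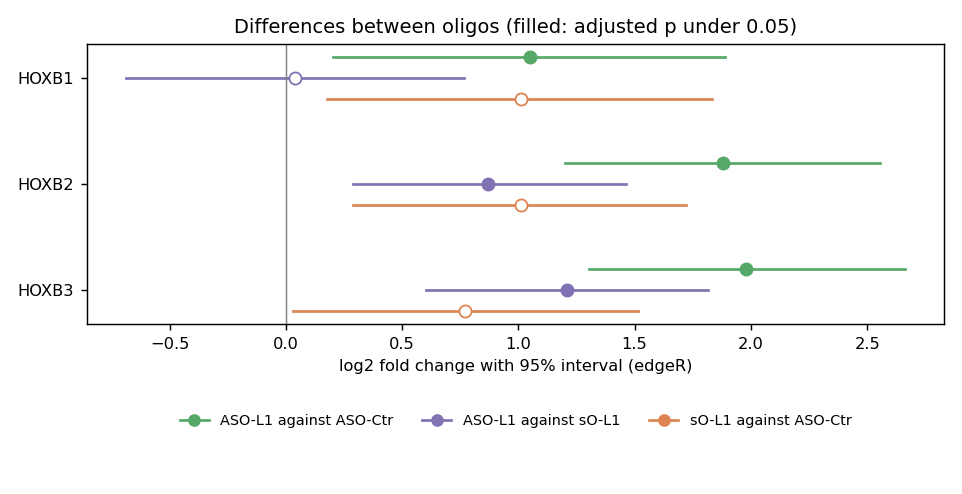
Log2 fold changes (x axis) of HOXB1, HOXB2 and HOXB3 in the 3 comparisons with 95% intervals from edgeR; filled points have an adjusted p under 0.05. Against ASO-Ctr all 3 ASO-L1 points are filled, at 1.05, 1.88 and 1.98, and no sO-L1 point is.

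The directional library kit marks strand, but the strand setting of the counting was not given in the sources used here. Reads of HOXB3 and of antisense RNA in the HOXB cluster could then not be told apart, and the same holds for overlapping transcripts of neighbouring HOX genes. HOXB-AS1, an antisense RNA between HOXB2 and HOXB3, had 15 reads over the 12 libraries. In sorted bulk cells, more RNA per cell and more cells with the RNA cannot be told apart.

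Summed by cluster, HOXB was the only cluster with a level well above the floor in any group. The HOXB sum was 0.96 ± 0.163 CPM in ASO-Ctr (125 reads), 1.72 ± 0.388 in sO-L1 (273 reads) and 3.37 ± 1.89 in ASO-L1 (429 reads). Its ranges of 0.835 to 1.2, 1.29 to 2.15 and 2.16 to 6.19 CPM did not overlap, with ASO-L1 replicate 1 as the highest. Summed over HOXB1, HOXB2 and HOXB3 alone, ASO-L1 (from 2.03 CPM) and sO-L1 (up to 2.15 CPM) overlapped. Sums were not tested, nor set against sums of other genes. HOXA had 1, 1 and 6 reads in ASO-Ctr, sO-L1 and ASO-L1, of which 4 came from ASO-L1 replicate 1. HOXC had 4, 4 and 9 reads, of which 5 came from that library. HOXD had 7, 3 and 20 reads, with 2, 1, 3 and 1 in the ASO-Ctr libraries, 0, 1, 0 and 2 in sO-L1, and 5, 6, 6 and 3 in ASO-L1. The HOXD sums of 0.0582 ± 0.0369, 0.0208 ± 0.0309 and 0.155 ± 0.0515 CPM did not overlap between ASO-L1 and sO-L1 but overlapped between ASO-L1 and ASO-Ctr.

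**Figure D4:**
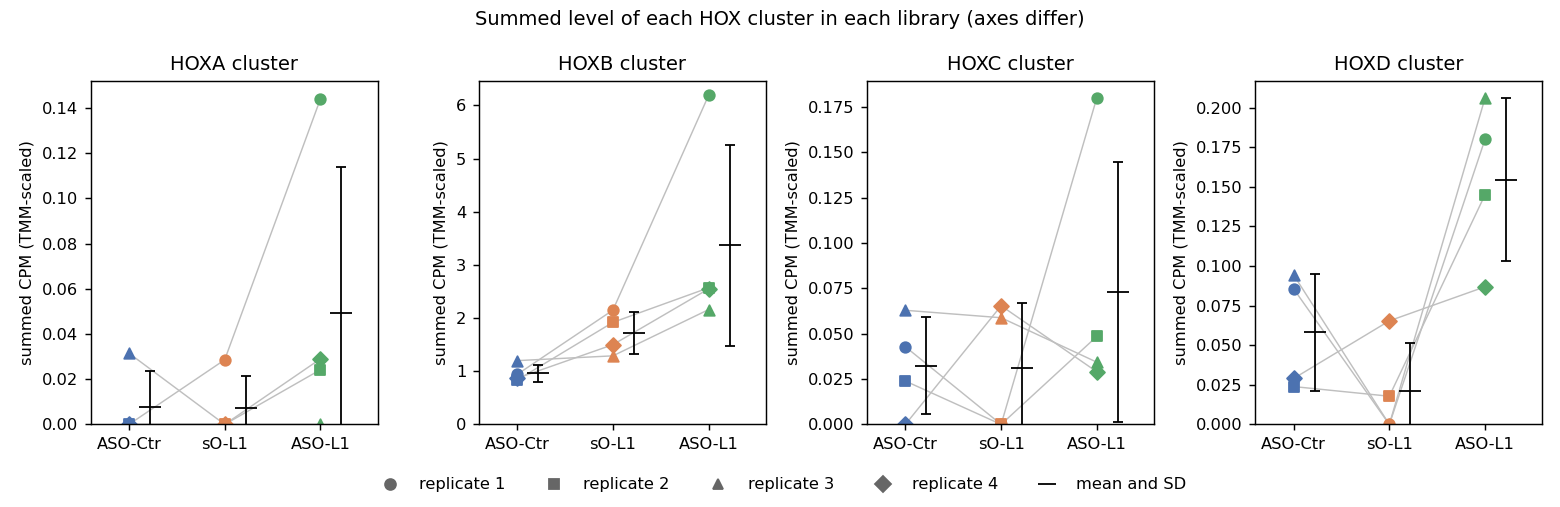
Summed CPM of each HOX cluster (y axes start at 0 and differ in scale) by oligo and library, with the mean and SD of 4 libraries in black. HOXB reaches 6.19 CPM, while no library of HOXA, HOXC or HOXD is above 0.206 CPM.

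The 36 members under the filter held 23 reads in ASO-Ctr, 10 in sO-L1 and 45 in ASO-L1. HOXB7, a trunk gene, had the most, 21 reads, with 9, 2 and 10 by group. HOXD1, of the first paralogue group, had 14, with 7, 1 and 6. HOXC13 and HOXD13, of the most posterior group, had 10 and 9, with 2, 0 and 8 for HOXC13 and 0, 1 and 8 for HOXD13. HOXC9 had 4 (1, 2 and 1) and HOXD9 had 4 (0, 0 and 4). In a fit without the filter, which covered 21 HOX genes, 0 of the 18 low genes were called in any comparison by edgeR and 0 had an unadjusted p under 0.05. The smallest adjusted p among them were 0.278 for HOXD13 against ASO-Ctr and 0.232 for HOXC13 against sO-L1. At these depths a difference in these genes was not detectable one by one.

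By position in the cluster, paralogue groups 1 to 3 held 121, 272 and 427 reads in ASO-Ctr, sO-L1 and ASO-L1, nearly all from HOXB1 to HOXB3. Groups 4 to 8 held 11, 5 and 10 reads. Groups 9 to 13 held 5, 4 and 27 reads, with 1, 2, 2 and 0 in the ASO-Ctr libraries, 1, 1, 2 and 0 in sO-L1, and 11, 8, 3 and 5 in ASO-L1. In CPM the posterior sum was 0.0383 ± 0.027, 0.0263 ± 0.0247 and 0.209 ± 0.13, and all 4 ASO-L1 libraries, at 0.103 to 0.396 CPM, exceeded all others. The lowest of them, replicate 3, was at its floor of 3 reads (0.103 CPM), and the highest was replicate 1. These few reads came from 8 genes in ASO-L1 and from 3 in each other group. The sum was not tested, nor set against sums of other low-level genes.

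Noncoding genes inside the clusters were as quiet as most coding ones. Of 24 in the table, 18 had 0 reads, among them HOTAIR and the microRNA genes MIR10A, MIR10B, MIR196A1, MIR196A2, MIR196B and MIR615, whose products a poly(A) library does not measure. None passed the filter. HOXD-AS1 had the most, with 0, 2, 0 and 5 reads in ASO-Ctr, 1, 2, 3 and 2 in sO-L1, and 10, 1, 9 and 3 in ASO-L1, so its groups overlapped. HOTAIRM1, a noncoding RNA of the HOXA cluster, had 5 reads.

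Genes of the TALE class (three-amino-acid-loop homeodomain proteins), to which the PBX partners of HOX proteins belong, were called in both directions with ASO-L1. Against ASO-Ctr, 4 of 8 tested genes of this class fell and 1, TGIF1, rose. The median log2 difference was -0.14, beside 23.1% of all genes lower and 21.2% higher. PBX3, of the class that helps HOX proteins select their sites, fell from 64.3 ± 2.86 to 55.9 ± 4.87 CPM (log2 -0.20, SE 0.05, adjusted p = 0.00388, edgeR). Its groups did not overlap. The share of all genes that lay wholly below was not computed, and 16.3% lay wholly above. TGIF2 (log2 -0.44) and PBX2 (-0.24) fell as well, and TGIF1 rose (0.26). Against sO-L1, TGIF2, PBX2 and PBX3 fell, at -0.33, -0.28 and -0.28, while TGIF1 (0.31) and PBX4 (0.60) rose. PBX2 was not called against ASO-Ctr in 9 of 16 leave-out fits, without libraries of replicates 1 to 4 (adjusted p up to 0.188, edgeR), nor without the replicate block, with only these groups in the fit or with limma on the authors' log2 values. Against sO-L1 it lost the call in 3 of 16, without libraries of replicate 1 or 2, and without the block. For PBX4, 9 of 16 leave-out fits, without libraries of replicates 1 to 4, gave no call, with log2 down to 0.29 (adjusted p up to 0.339, edgeR), nor did the same other settings or DESeq2. PBX3 lost its call against ASO-Ctr without replicate 2 (adjusted p = 0.0557, edgeR).

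Among retinoid genes and other inputs that induce HOX genes, 8 of 20 tested rose and 3 fell against ASO-Ctr, with a median of 0.05, beside 21.2% and 23.1% of all genes. EGR2, the hindbrain factor KROX20 that acts upstream of HOXB2, rose from 0.227 ± 0.0724 to 0.543 ± 0.216 CPM against ASO-Ctr, with overlapping groups (log2 1.20, SE 0.37, adjusted p = 0.0143), and lost that call in 5 of 16 leave-out fits, by replicate 1 or 2 (highest adjusted p = 0.0999). CYP26B1, which degrades retinoic acid, rose as well (log2 1.19, adjusted p = 0.0297), and 8 of 16 such fits, without libraries of replicate 1, 3 or 4, did not call it. It reached the filter level of 0.289 CPM in every ASO-L1 library and in too few of the others to be tested without ASO-L1. A difference was therefore part of how CYP26B1 came to be tested. DHRS3, which turns retinal back to retinol, fell (log2 -0.71), as did GDF11, a signal for posterior HOX genes (-0.44). DHRS3 and GDF11 also fell against sO-L1 (-0.82 and -0.45). CDX2, a caudal activator of central HOX genes, had 0 reads, and CDX1 had 2. CDX4 is given because it is of the same caudal family, not by the rule for naming list members. It was measured at 4.84 to 5.48 CPM in ASO-Ctr, 4.58 to 5.95 CPM in sO-L1 and 7.18 to 10.1 CPM in ASO-L1. Other members of this list that rose are not named.

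Chromatin regulators of the clusters were called in both directions, beside 21.2% of all genes higher and 23.1% lower against ASO-Ctr. Of 19 Polycomb genes 6 rose and 5 fell against ASO-Ctr, with a median of 0.02. CBX8, a chromodomain subunit of Polycomb complex PRC1, rose from 0.486 ± 0.176 to 1.61 ± 0.586 CPM (log2 1.70, adjusted p = 0.000103, edgeR). BMI1, a core PRC1 subunit, rose from 10.4 ± 3.02 to 26.9 ± 7.07 CPM (log2 1.36, adjusted p = 6.94e-06). CBX2 (log2 -0.57) and CBX7 (-0.46), of the same subunit class, fell, and so did EZH2, the methyltransferase of complex PRC2 (-0.37). Against sO-L1 the values were 1.80 for CBX8, 1.24 for BMI1, -0.50 for CBX2, -0.61 for CBX7 and -0.35 for EZH2, all called. Against ASO-Ctr, CBX7 was not called in 9 of 16 leave-out fits, without libraries of replicates 1 to 4 (adjusted p up to 0.154, edgeR), nor with DESeq2, without the replicate block or with only these groups in the fit. Against sO-L1 it was lost without replicate 3 (adjusted p = 0.0768, edgeR). Of 19 tested genes of the trithorax side, which keep HOX genes active, 5 rose and 5 fell against ASO-Ctr, with a median of 0.08. MLLT3, a reader of the elongation complex, fell (log2 -0.65), as did the acetyltransferases KAT6B (-0.46) and KAT6A (-0.25) and the demethylase KDM6A (-0.27). DOT1L, a histone H3 methyltransferase (0.33), and RBBP5 (0.22) rose, DOT1L not with DESeq2. Against sO-L1, 7 Polycomb genes rose and 3 fell, and 8 genes of the trithorax side rose and 4 fell, beside 21.1% and 22.9% of all genes.

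Of 28 tested genes that flank the clusters, 5 rose and 11 fell against ASO-Ctr, with a median of -0.06, beside 21.2% and 23.1% of all genes. TTLL6, a tubulin polyglutamylase beyond the posterior end of HOXB, fell from 2.53 ± 0.596 to 1.22 ± 0.104 CPM (log2 -1.02, SE 0.17, adjusted p = 0.000155, edgeR). The 5 that rose did so by 0.17 to 0.32 on the log2 scale: NFE2L2 (0.32), CALCOCO2 (0.28), SNX10 (0.27), ATP5G2 (0.19) and ATP5G3 (0.17). SNX10 lost its call in 7 of 16 leave-out fits, without libraries of replicates 1 to 3. ATP5G2 did so in 7, without those of replicates 2 to 4, and CALCOCO2 in 3 and ATP5G3 in 2, by replicate 2 or 3. Of homeobox genes outside the clusters, 11 of 40 could be tested, of which 6 rose and 1 fell, with a median of 0.61, beside 21.2% and 23.1% of all genes and 10.7% of low-level genes higher. MSX2 rose from 0.0953 ± 0.049 to 0.879 ± 0.372 CPM (log2 3.02), GBX2 from 0.114 ± 0.0602 to 0.798 ± 0.165 CPM (log2 2.82) and SIX2 from 0.136 ± 0.0539 to 0.559 ± 0.236 CPM (log2 1.89; adjusted p = 0.000135, 0.000135 and 0.00341). HESX1, a forebrain factor, fell (-0.29). MSX2, GBX2 and SIX2 were under the filter level of 0.289 CPM in every ASO-Ctr library and above it in every ASO-L1 library, so a difference was part of how they came to be tested.

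Markers of the labelled cell type were abundant, and some markers of other types were measured as well, in part called with ASO-L1 against ASO-Ctr. The counts of calls below stand beside 21.2% of all genes higher and 23.1% lower in this comparison, and 10.7% of low-level genes higher. All 10 pluripotency markers were tested. Their summed level was 9420 to 9620 CPM in ASO-Ctr, 9180 to 9850 CPM in sO-L1 and 8000 to 8550 CPM in ASO-L1, with 0 higher and 5 lower against ASO-Ctr, DNMT3B most (log2 -0.51). Mean DNMT3B fell from 2500 to 1760 CPM and LIN28A from 2030 to 1740 CPM. POU5F1, at 1080 to 1220 CPM in ASO-Ctr and 1160 to 1300 CPM in ASO-L1, and NANOG were not called. L1TD1 lost its call in 10 of 16 leave-out fits, SALL4 in 6, and ZFP42 without the replicate block (adjusted p = 0.227, edgeR). Of 12 neuroectoderm and spinal cord markers 7 were tested, of which 4 rose (OLIG2 1.70, PAX6 0.68, SOX3 0.61 and NES 0.40) and DCX fell (-0.78), with sums of 418 to 478, 450 to 552 and 547 to 619 CPM in ASO-Ctr, sO-L1 and ASO-L1. Most of this sum was NES, at 390 to 451, 423 to 526 and 524 to 601 CPM. The sums for primitive streak and mesoderm were 16.6 to 19.4, 17.3 to 21.5 and 20.5 to 32.8 CPM (1 of 3 tested rose, MIXL1, 0.61). For trophectoderm and amnion they were 7.5 to 9.45, 6.99 to 9.9 and 8.77 to 13.8 CPM (1 of 5 rose, GATA2, 0.84). For endoderm they were 83.8 to 159.0, 105.0 to 187.0 and 151.0 to 318.0 CPM (FOXA2 1.21 and CER1 1.04 rose and PDGFRA -0.90 fell, of 5). Most of the endoderm sum was CER1, at 62.3 to 131, 78.4 to 156 and 136 to 296 CPM. For fibroblasts the sums were 117.0 to 143.0, 104.0 to 133.0 and 116.0 to 138.0 CPM, with LUM at 0 reads in every library (TWIST1 3.66 and THY1 0.42 rose and COL1A2 -0.73 fell, of 6). OLIG2 was under the filter level in every ASO-Ctr and sO-L1 library and above it in every ASO-L1 library, so it was tested only through ASO-L1. TWIST1 reached that level in 1, 3 and 4 libraries of ASO-Ctr, sO-L1 and ASO-L1. FOXA2 and SOX3 were not called without the replicate block. The part of these cell markers in the HOXB differences was not tested.

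Between sO-L1 and ASO-Ctr, edgeR called 0 of 137 tested members of these lists found under their listed symbols, with 20 at an unadjusted p under 0.05. Over all genes it called 0.0695% higher and 0.220% lower, so few calls were likely in a list of this size. The 20 count both directions. Over all genes, 3.19% had such a p and were higher, and the share for lower genes was not computed. DESeq2 called 2, CER1 and ELAVL3, the latter an RNA-binding protein of neurons, and limma on the authors' log2 values called 0.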

How the data were processed

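The authors deposited raw read counts after removal of duplicates, as named in the labels, a batch-corrected log2 table, and a comparison table with p-value columns and scores. The scores deposited by the authors were not used. Per the submitters' processing notes, reads passed through TopHat2 2.0.13, Trim Galore 0.4.0 and Subread 1.5.0 (featureCounts) on hg19, in an order and with an annotation not given in the sources used here. edgeR 4.0.16 (R 4.3.3) was run on the counts of all 12 libraries, with oligo and replicate number as terms: TMM scaling, filterByExpr at its minimum count of 10, two-sided quasi-likelihood tests, and Benjamini-Hochberg adjustment over 17264 genes, called under 0.05. The number pairs libraries: in 10549 genes the 12 same-number pairs correlated at 0.215 to 0.726 after centring on groups, against a median of -0.225 for the other 36, and 0 library pairs were identical. CPM use TMM-scaled library sizes. Intervals and floors of 3 reads cover counting or model error only. Alternatives were edgeR's RLE scaling, DESeq2 1.42.0, limma 3.58.1 on the log2 table, other filters, no block, only the compared groups, and each replicate number or library left out. Scripts were tested on simulated data.

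The members and gene lists were chosen with earlier results of these data known. Every HOX gene passing the filter, the 6 under it with the most reads and those with 0 reads were named; of each list, members called with a log2 change of at least 1, or all where 5 or fewer were called in 1 direction, to at most 6. Older symbols were matched through RefSeq synonyms (KMT2A as MLL, KMT2B as WBP7, TBXT as T). Some genes that this rule names are not reported here, though they count in the totals of their lists.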

Additional observations from a re-analysis of the deposited data

Results flagged for a closer look

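In each group of 4 libraries the highest or lowest value was set against the other 3 by Dixon's criterion (gap over range above its 95% critical value). It singled out 17 of 174 groups, where chance gives about 1 in 20 for separate values with a normal spread. These groups are not separate, since HOXB3, the HOXB sum and the sum of all HOX genes share reads. Sums of a few reads are not normal either, so the excess was not measured. ASO-L1 replicate 1 was the high library in 7 of the 17. There HOXB3 was at 2.52 CPM (others 0.897 to 0.984), the HOXB sum at 6.19 (2.16 to 2.57), the HOXC sum at 0.18 (0.029 to 0.0485) and the sum of all HOX genes at 6.7 (2.4 to 2.79). CBX8 was at 2.49 CPM (1.25 to 1.37), PAX6 at 4.07 (2.44 to 2.61) and TGIF1 at 95.9 (81.3 to 82.7). HOXA sums of 0.0315 CPM in ASO-Ctr replicate 3 and 0.0286 CPM in sO-L1 replicate 1 are 1 read each beside libraries with 0.

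ASO-Ctr replicate 1 was high in TWIST1 (0.727 CPM, others 0.145 to 0.215) and ZFP42 (311.0, others 253.0 to 262.0) and low in KDM6A (95.9, others 108.0). ASO-Ctr replicate 2 was low in PAX6 (1.22 CPM, others 1.97 to 2.06) and replicate 3 high in PDGFRA (16.2, others 15.0 to 15.1). sO-L1 replicate 1 was low in CBX2 (61.5 CPM, others 71.1 to 72.6) and SIX2 (0.114, others 0.294 to 0.32). ASO-L1 replicate 4 was low in THY1 (64.5 CPM, others 76.1 to 77.4).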

How the results depend on the processing

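The directions of HOXB2 and HOXB3 held in every alternative run that could fit them. With a minimum count of 50 no HOX gene was left to test. Without the replicate block the sO-L1 against ASO-Ctr calls over all genes were 2 higher and 15 lower, against 12 and 38 with it, and HOXB1 lost its call against ASO-Ctr (adjusted p = 0.0517, edgeR); the block changed no other HOX call. In that comparison the counts were 28 and 67 with DESeq2, 53 and 84 with limma on the authors' log2 table, 46 and 95 without the filter, and 263 and 377 with only these groups in the fit, where 1 HOX gene was higher. Leaving out a replicate number or library gave 1 to 169 higher and 8 to 241 lower, the highest of both without ASO-L1 replicate 1. Against sO-L1, HOX genes higher with ASO-L1 numbered 1 with limma and 1 to 2 in leave-out fits. HOXB1 in ASO-L1 against sO-L1, which was not called, ranged from log2 -0.267 to 0.241 in leave-out fits and was below 0 in 5 of 16 (-0.00268, -0.0693, -0.0995 and -0.169 being the others). The cause was not tested.

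Differences of summed CPM rested on few genes. Over members under the filter the HOXB difference from ASO-Ctr was 0.00528 CPM in ASO-L1 and -0.0669 CPM in sO-L1 (2.41 and 0.756 over all members), and that of all HOX genes 0.184 and -0.106 (2.59 and 0.717). Without HOXC13 the HOXC difference was -0.00524 between ASO-L1 and ASO-Ctr, -0.0225 between ASO-L1 and sO-L1, and 0.0172 between sO-L1 and ASO-Ctr. Without HOXD1 the HOXD difference between sO-L1 and ASO-Ctr was 0.0126. With 1 replicate number left out, the HOXC difference ranged from -0.00415 to 0.068 between ASO-L1 and sO-L1 and from -0.0236 to 0.0125 between sO-L1 and ASO-Ctr, and the HOXA difference between the latter from -0.0105 to 0.00954. Detected genes averaged 6.25, 5.25 and 8.5 in ASO-Ctr, sO-L1 and ASO-L1 at 1 read or more, 1.5, 2.75 and 2.75 at 10 or more, and 2.99 in sO-L1 at the smallest depth. Of 88 results of named list genes, 26 lost a call in some alternative and 0 reversed.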
